A study of Mus musculus with 6 samples.

Results

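A set of 10 genes of the endoplasmic reticulum was followed in infarcted mouse hearts: the chaperones and folding enzymes Hspa5, Hsp90b1, Pdia3, Pdia4, Pdia6, Calr and Serpinh1, and the stress transcription factors Ddit3, Atf4 and Xbp1. They were taken by name, 10 of 35498 genes with transcripts in the tables, and all 10 were among the 14237 genes that passed a filter on low counts. Poly-A RNA came from ventricle below the ligature in 8- to 10-week-old mice of the C57BL/6J strain at day 7 of an infarct made by tying off the left anterior descending coronary artery. The knockout samples (Runx1_FB_KO, n = 3) had the genotype Postn CreER+/- with Runx1 fl, and the control samples (CTL, n = 3) had Postn CreER+/- with wild-type Runx1. All 6 samples came from mice on a tamoxifen diet from surgery onward, so recombinase, drug and infarct were shared by the groups. The recombinase is driven by the periostin promoter, which is active in activated fibroblasts, while the RNA came from whole tissue, so Runx1 transcripts of all other cells were still counted. The labels do not say whether the conditional allele was on both chromosomes. Runx1_FB_KO replicate 1 was male and replicates 2 and 3 were female, whereas CTL replicate 1 was female and replicates 2 and 3 were male.

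The endoplasmic reticulum folds secreted and membrane proteins. Hspa5 (BiP) and Hsp90b1 (GRP94) bind unfolded chains, Pdia3, Pdia4 and Pdia6 make and rearrange disulfide bonds, Calr (calreticulin) binds glycoproteins and calcium, and Serpinh1 (HSP47) binds procollagen. When folding fails, the sensors Atf6, Ern1 (IRE1) and Eif2ak3 (PERK) start the unfolded protein response. Ern1 removes a short intron from Xbp1 mRNA, Eif2ak3 favours translation of Atf4, and Atf4 induces Ddit3 (CHOP), a factor linked to cell death. After infarction, fibroblasts secrete large amounts of collagen, which passes through this machinery.

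Depth was 16598561 to 19987279 estimated reads per library. The share of mitochondrially encoded genes was 24.5%, 19.6% and 10.4% in Runx1_FB_KO replicates 1, 2 and 3, against 5.36% to 7.11% in CTL. The targeted gene, Runx1, was at 17.5, 10.9 and 67.4 CPM (counts relative to the TMM-scaled library size) in Runx1_FB_KO replicates 1, 2 and 3, against 85.5 to 96.4 CPM in CTL, with a log2 fold change of -1.48 (SE 0.63, edgeR adjusted p = 0.154), and -2.61 without Runx1_FB_KO replicate 3 (edgeR adjusted p = 0.000142). Runx1_FB_KO replicate 3 thus stood nearer to CTL than the other knockout libraries did, and results are given with and without it. That choice rests on these same data, so p-values without replicate 3 are a description and no separate test. The exon that the recombinase removes is not stated in the labels. The 12 cardiomyocyte markers summed to 31290 to 118200 CPM in the knockout and 12260 to 15680 CPM in CTL, with all 12 above CTL in every knockout library and none at 0. The 10 activated fibroblast markers summed to 2188 to 6695 CPM in the knockout and 6159 to 8960 CPM in CTL, with 4 below CTL and none at 0. Over all genes, 20.2% lay wholly above CTL and 18.8% wholly below. In bulk tissue, fewer cells of a type and less RNA per cell cannot be told apart, and the part of these markers in the results that follow was not tested.

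The promoters of several members carry the ER stress response element, the sequence that Atf6 and Xbp1 bind with the factor NF-Y. Windows from 250 bases before to 50 bases after each RefSeq start (GRCm38.p6) were found for all 10 members and searched on both strands for CCAAT and CCACG separated by 9 bases. Hspa5, Hsp90b1, Pdia6 and Calr held it, 4 of 10 members, compared with 0.119% of 32851 promoter windows and 0.137% of 27025 genes. The members were taken by name as genes of this machinery, so these shares are a description and no test. The matches are shown because these 4 genes carry the same element and yet took different values in the knockout. Each is written in the direction of the gene, with the 5-base ends of the element in capitals; on the opposite strand the element reads CGTGG then ATTGG.

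Hspa5, chr2:34772025-34772043, plus strand, 65 to 47 bases before the start: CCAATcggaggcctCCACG

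Hsp90b1, chr10:86705638-86705656, minus strand, 212 to 194 bases before the start: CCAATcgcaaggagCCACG

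Hsp90b1, chr10:86705533-86705551, minus strand, 107 to 89 bases before the start, element on the opposite strand: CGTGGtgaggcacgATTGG

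Pdia6, chr12:17266491-17266509, plus strand, 98 to 80 bases before the start: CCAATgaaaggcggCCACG

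Calr, chr8:84847075-84847093, minus strand, 162 to 144 bases before the start, element on the opposite strand: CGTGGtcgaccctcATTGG

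The whole windows of Hspa5 and Pdia6 follow. Each holds a single exact match, and the 2 genes had log2 fold changes of opposite sign in the knockout. The Hspa5 window also holds CCAAT and CCAAC separated by 9 bases, which the search did not count. Near matches were not searched for in any window, so copy number is not compared here. The capitals again mark the ends of the exact match.

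Hspa5, chr2:34771840-34772139, plus strand: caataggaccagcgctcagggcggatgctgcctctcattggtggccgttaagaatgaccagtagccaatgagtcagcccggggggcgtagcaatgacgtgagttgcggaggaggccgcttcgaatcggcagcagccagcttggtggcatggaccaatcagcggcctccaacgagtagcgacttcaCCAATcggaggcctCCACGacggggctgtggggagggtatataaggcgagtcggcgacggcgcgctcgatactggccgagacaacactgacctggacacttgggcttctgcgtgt

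Pdia6, chr12:17266339-17266638, plus strand: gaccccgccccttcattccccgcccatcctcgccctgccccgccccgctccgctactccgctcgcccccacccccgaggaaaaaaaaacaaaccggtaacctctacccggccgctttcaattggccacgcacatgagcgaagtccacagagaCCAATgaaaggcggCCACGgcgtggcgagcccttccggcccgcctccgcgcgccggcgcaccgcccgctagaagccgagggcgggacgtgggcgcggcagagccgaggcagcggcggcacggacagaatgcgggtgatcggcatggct

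A second form of the element (ATTGG and CCACG, 1 base apart), the Xbp1 element (TGACG directly followed by TGG) and the element of Atf4 with C/EBP factors (TGATG and AAT, 1 base apart) were found in 0 of 10 member windows, against 0.0365%, 0.676% and 0.965% of all windows. A match is only a run of letters, and its absence says nothing of more distant sites.

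None of the 10 members differed between knockout and CTL at an adjusted p under 0.05 in edgeR with all 6 libraries, and nor did any of the 14237 genes tested (0%). At an unadjusted p under 0.05, Hspa5 was higher and Pdia4 was lower, where 19.3% of all genes were higher and 13.1% lower at that level. The 10 log2 fold changes ran from -0.96 for Serpinh1 to 0.61 for Hspa5, with a median of -0.38, and 8 of 10 were negative. Over all genes the median was -0.06 and 54% were negative. The knockout values lay wholly above CTL for Hspa5 and wholly below CTL for Xbp1, and overlapped CTL for the other members. Over all genes, 20.2% lay wholly above and 18.8% wholly below.

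Leaving out Runx1_FB_KO replicate 3 changed these calls. With the other 5 libraries, 1 member rose (Hspa5) and 6 fell (Pdia3, Pdia4, Pdia6, Serpinh1, Atf4 and Xbp1) in edgeR, where 25.1% of 14609 genes rose and 22.5% fell. Leaving out any other single library gave 0 genes and 0 members called. Replicate 3 was singled out because it stood nearest to CTL, so the calls without it are a description. DESeq2 with all 6 libraries called Hspa5 alone among the members (adjusted p = 0.0177), where it called 15.6% of genes higher and 5.9% lower. With no filter on low counts edgeR called 0 members, where 4.21% of genes were called higher and 0.193% lower.

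**Figure D1:**
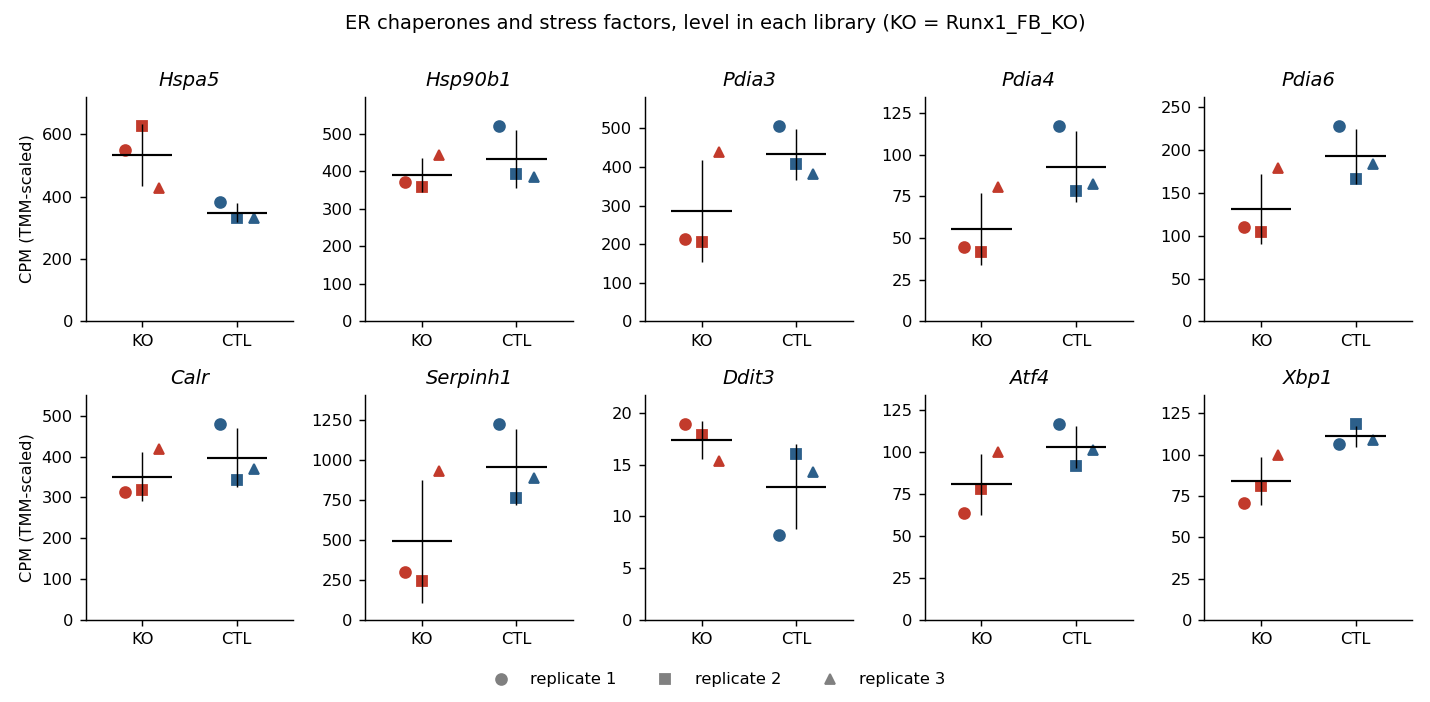
Levels of the 10 members in each library, in TMM-scaled CPM on axes that start at 0, with Runx1_FB_KO (KO, red) left of CTL (blue) and the mean and SD (n = 3) in black. For Serpinh1 and the Pdia genes, knockout replicates 1 and 2 lie low and replicate 3 (triangle) lies among the CTL libraries, while all 3 knockout libraries lie above CTL for Hspa5.

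Hspa5 (GRCm38: ENSMUSG00000026864, chromosome 2, 34771970 to 34777547, plus strand), the main chaperone of the compartment and its best-known stress reporter, was higher in the knockout in TMM-scaled CPM. It was at 548, 627 and 429 CPM in Runx1_FB_KO replicates 1, 2 and 3, against 384, 332 and 331 CPM in CTL replicates 1, 2 and 3. All 3 knockout libraries were above all 3 CTL libraries, replicate 3 by the least. The means were 535 ± 99.5 CPM in the knockout and 349 ± 30.5 CPM in CTL (SD, n = 3 each), with a log2 fold change of 0.61 (SE 0.23, edgeR adjusted p = 0.127). Leaving out Runx1_FB_KO replicate 3, it rose by 0.79 (SE 0.15, edgeR adjusted p = 0.00435). Both the size and the direction rest on the scaling. Scaled by library size alone, its log2 fold change was 0.11, its groups overlapped, and the median over all genes moved to -0.52. In TPM (level per transcript length, not scaled by TMM) its groups overlapped. Its mean was then lower in the knockout, at 232 TPM, against 252 TPM in CTL.

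Hsp90b1 (ENSMUSG00000020048, chromosome 10, 86690209 to 86705509, minus strand), the other large chaperone, did not follow Hspa5. It was at 372, 357 and 442 CPM in Runx1_FB_KO replicates 1, 2 and 3, against 521, 392 and 384 CPM in CTL replicates 1, 2 and 3. The groups overlapped, and replicate 3 of the knockout was above CTL replicates 2 and 3. Its log2 fold change of -0.15 (SE 0.22, edgeR adjusted p = 0.653) became 0.01 without CTL replicate 1, the highest library. Calr (ENSMUSG00000003814, chromosome 8, 84841850 to 84846934, minus strand) had nearly the same profile, with 314, 319 and 419 CPM in Runx1_FB_KO replicates 1, 2 and 3 and 479, 344 and 369 CPM in CTL replicates 1, 2 and 3 (log2 fold change -0.18, SE 0.23, edgeR adjusted p = 0.601). For both genes CTL replicate 1 was the highest library.

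The disulfide isomerases were lower in 2 of the 3 knockout libraries. Pdia3 (ENSMUSG00000027248, chromosome 2, 121413775 to 121438687, plus strand), which works with calreticulin on glycoproteins, was at 213, 206 and 438 CPM in Runx1_FB_KO replicates 1, 2 and 3, against 506, 408 and 382 CPM in CTL replicates 1, 2 and 3. Replicates 1 and 2 of the knockout were below every CTL library and replicate 3 was within CTL. Its log2 fold change of -0.60 (SE 0.34, edgeR adjusted p = 0.249) became -1.002 without Runx1_FB_KO replicate 3 (SE 0.17, edgeR adjusted p = 0.00261).

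Pdia4 (ENSMUSG00000025823, chromosome 6, 47796141 to 47813430, minus strand), with more catalytic domains than the other isomerases here, was at 44.8, 41.5 and 80.6 CPM in Runx1_FB_KO replicates 1, 2 and 3, against 117, 78.3 and 82.5 CPM in CTL replicates 1, 2 and 3. Pdia6 (ENSMUSG00000020571, chromosome 12, 17266545 to 17284770, plus strand), which is also known to act on the sensor Ern1, was at 110, 105 and 179 CPM in the knockout libraries in the same order, against 228, 167 and 183 CPM in CTL. In both genes replicate 3 of the knockout lay between CTL libraries. The log2 fold changes were -0.74 for Pdia4 (SE 0.30, edgeR adjusted p = 0.147) and -0.55 for Pdia6 (SE 0.26, edgeR adjusted p = 0.183). Without replicate 3 of the knockout they were -1.06 and -0.80 (edgeR adjusted p = 0.00416 and 0.0067).

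Serpinh1 (ENSMUSG00000070436, chromosome 7, 99345376 to 99353239, minus strand), the collagen chaperone, had the most negative value of the members and the widest spread. It was at 296, 244 and 932 CPM in Runx1_FB_KO replicates 1, 2 and 3, against 1224, 760 and 886 CPM in CTL replicates 1, 2 and 3. Replicates 1 and 2 of the knockout were far below CTL, and replicate 3 exceeded 2 of the 3 CTL libraries. The fitted log2 value of -0.96 (SE 0.54, edgeR adjusted p = 0.243) became -1.78 without Runx1_FB_KO replicate 3 (SE 0.25, edgeR adjusted p = 0.0011). The fibroblast markers were also low in replicates 1 and 2 of the knockout. Their score, the mean log2 CPM minus that of CTL, was -1.75, -1.85 and -0.14 in Runx1_FB_KO replicates 1, 2 and 3. In CTL replicates 1, 2 and 3 the score was -0.12, 0.15 and -0.03, an order opposite to that of Serpinh1. An order of 3 libraries is a description, and the part of fibroblasts in the Serpinh1 values was not tested.

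The 8 collagens tested, its clients, all had negative log2 fold changes (median -1.11), 5 lay wholly below CTL, and all 8 fell in the fit without replicate 3 of the knockout (median -1.82). Over all genes, 18.8% lay wholly below CTL and 22.5% fell in that fit. Col1a1 was at 1880, 1959 and 8606 CPM in Runx1_FB_KO replicates 1, 2 and 3, against 9203 to 11429 CPM in CTL. The number of Serpinh1 reads per Col1a1 read within a library, which does not depend on the scaling, was 0.158, 0.124 and 0.108 in Runx1_FB_KO replicates 1, 2 and 3, against 0.107, 0.0826 and 0.0879 in CTL. All 3 knockout ratios exceeded CTL, replicate 3 by little (two-sided exact permutation p = 0.1, the smallest that 3 against 3 can give, and 0.133 adjusted over 12 ratios chosen after the values were seen). As a ratio of TPM the groups overlapped, with 0.442, 0.347 and 0.3004 in the knockout and 0.3019, 0.231 and 0.253 in CTL. Per read of Col3a1, a collagen of early scar, Serpinh1 was at 0.0627, 0.0667 and 0.106 in the knockout and 0.112, 0.0599 and 0.0859 in CTL, which overlap (exact permutation p = 0.8, adjusted 0.873).

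The stress factors had log2 fold changes of both signs, and none passed the edgeR threshold with all 6 libraries. Ddit3 (ENSMUSG00000025408, chromosome 10, 127290774 to 127296288, plus strand) was at 18.9, 17.9 and 15.4 CPM in Runx1_FB_KO replicates 1, 2 and 3, against 8.23, 16.1 and 14.3 CPM in CTL replicates 1, 2 and 3. CTL replicate 1 was low, and CTL replicate 2 was above replicate 3 of the knockout. It had a log2 fold change of 0.43 (SE 0.27, edgeR adjusted p = 0.282), but -0.05 with library size alone and 0.20 without CTL replicate 1. A fit that also held sex gave 0.66 (edgeR adjusted p = 0.13). These levels rest on 185 to 360 reads per library.

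Atf4 (ENSMUSG00000042406, chromosome 15, 80255184 to 80257541, plus strand) was at 63.8, 78.0 and 99.9 CPM in Runx1_FB_KO replicates 1, 2 and 3, against 116, 91.7 and 101 CPM in CTL replicates 1, 2 and 3. Its groups overlapped through replicate 3 of the knockout, with a log2 fold change of -0.35 (SE 0.21, edgeR adjusted p = 0.255). Much of the control of Atf4 is on translation, which RNA levels do not show. Xbp1 (ENSMUSG00000020484, chromosome 11, 5520659 to 5525893, plus strand) was at 70.9, 81.4 and 100 CPM in the knockout libraries in the same order, against 106, 118 and 109 CPM in CTL, and the groups did not overlap. Xbp1 had a log2 fold change of -0.40 (SE 0.17, edgeR adjusted p = 0.159). In the fit without replicate 3 of the knockout, Atf4 had -0.50 and Xbp1 had -0.50 (edgeR adjusted p = 0.0358 and 0.0155). Plasma cells depend on Xbp1. The 9 B and plasma cell markers summed to 40.4 to 123.8 CPM in the knockout and 139.5 to 296.1 CPM in CTL. Of these 9 markers, 2 lay wholly below CTL, where 18.8% of all genes did. The part of these cells in the Xbp1 values was not tested.

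**Figure D2:**
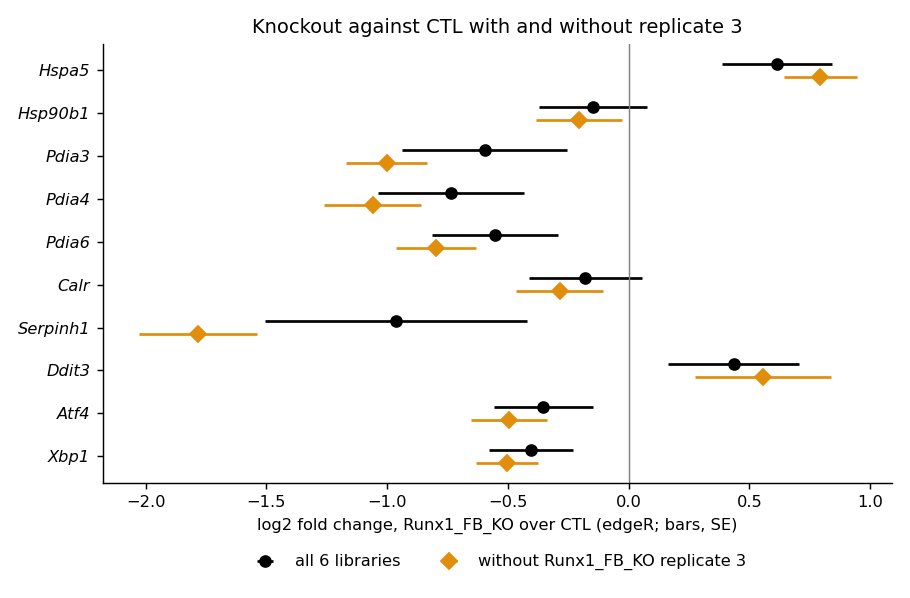
Log2 fold change of each member, Runx1_FB_KO over CTL, with its SE, from edgeR on all 6 libraries (black) and without Runx1_FB_KO replicate 3 (orange). Serpinh1 shifts the most, to -1.78 from -0.96, and Hspa5 and Ddit3 are the members on the positive side, Ddit3 turning to -0.05 with library size alone.

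Hspa5 stood apart from most members within each library as well. The ratio of Hspa5 reads to those of another gene of the same library is free of the scaling, and it was compared for each of the 9 other members. Per Pdia4 read there were 12.2, 15.1 and 5.33 Hspa5 reads in Runx1_FB_KO replicates 1, 2 and 3, against 3.28, 4.24 and 4.01 in CTL. Per Hsp90b1 read there were 1.47, 1.76 and 0.97 in the knockout, against 0.737, 0.847 and 0.861 in CTL. Replicate 3 of the knockout was closest to CTL in both, yet above it.

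The same held for Hspa5 over Pdia3, Pdia6, Calr, Serpinh1, Atf4 and Xbp1: for 8 of the 9 other members, all 3 knockout ratios exceeded all 3 CTL ratios. The mean log2 differences ran from 0.74 for Hsp90b1 to 1.81 for Serpinh1. Each had p = 0.1 in a two-sided exact permutation test, the smallest that 3 against 3 can give, and 0.133 after Benjamini-Hochberg adjustment over the 12 ratios. The ratios were chosen after the values were seen. They share the numerator Hspa5, itself wholly above CTL, so they are not separate observations. Of all genes tested, 39% did not overlap by CPM, and how often Hspa5 over any other gene separates the groups was not computed. Over Ddit3 the ratio overlapped, at 29.0, 35.05 and 27.8 in the knockout and 46.7, 20.6 and 23.1 in CTL. Ddit3 reads per Atf4 read were 0.296, 0.229 and 0.154 in the knockout and 0.0707, 0.175 and 0.142 in CTL, and overlapped (exact permutation p = 0.2, adjusted 0.24). A ratio shows unequal change and not which gene changed.

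**Figure D3:**
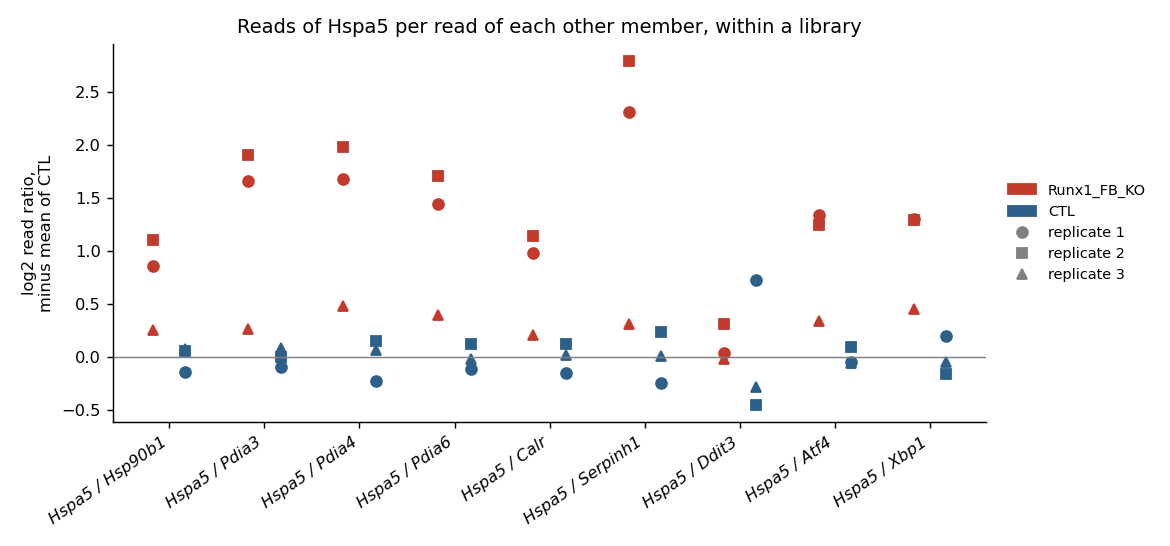
Reads of Hspa5 per read of each other member within a library, as log2 with the mean of CTL set to 0, for Runx1_FB_KO (red, left of each pair) and CTL (blue). All 3 knockout libraries lie above CTL for 8 of the 9 genes, replicate 3 (triangle) by the least, and Ddit3 is the exception.

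Likeness of profile among the members was measured as the root mean square difference of log2 CPM over the 6 libraries after centring each gene. Hsp90b1 and Calr differed by 0.064, and Pdia3, Pdia4 and Pdia6 by 0.11 to 0.139. Atf4 was about as near to Calr, at 0.137, and differed from Xbp1 by 0.152 and from Pdia6 by 0.171. The chaperones thus did not form sets apart from these stress factors. Hspa5 differed from Hsp90b1 by 0.454 and from Serpinh1 by 1.188, and Serpinh1 from Ddit3 by 1.195, the widest gap among the members. These distances describe 6 libraries that share the genotype contrast and carry no test.

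The gene nearest to Hspa5 among 10013 expressed protein-coding genes was Hspe1, a mitochondrial chaperonin, at a distance of 0.0348. Per Hspe1 read, a ratio chosen for its likeness and not tested, there were 6.27, 6.35 and 6.28 Hspa5 reads in Runx1_FB_KO replicates 1, 2 and 3, against 6.10, 6.18 and 6.59 in CTL. Edf1, a transcriptional coactivator, Slc25a5, a mitochondrial nucleotide carrier, and Nomo1 followed at 0.0462, 0.0463 and 0.0492. Nearest to Serpinh1 were C3ar1, a complement receptor, at 0.0536, the lysyl oxidase Loxl2 at 0.066, Nckap1l at 0.0792 and Blnk at 0.0914. Nearest to Ddit3 were Slco2b1 at 0.0778, Samd5 and Cby1 at 0.104 and Crebl2 at 0.111.

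Within Serpinh1 the transcripts took different shares in the knockout, in all 3 libraries. Serpinh1-203 (ENSMUST00000207849.1) was given 18.0%, 12.9% and 12.9% of the gene's reads in Runx1_FB_KO replicates 1, 2 and 3, against 31.6%, 27.5% and 34.0% in CTL replicates 1, 2 and 3. Replicate 3 of the knockout, whose total for the gene lay within CTL, had a share like those of the other knockout libraries. The means were 14.6 ± 2.98% in the knockout and 31.0 ± 3.32% in CTL (SD, n = 3 each).

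Serpinh1-201 (ENSMUST00000094154.5) took the complement, with 78.4%, 84.1% and 81.6% in the knockout and 64.0%, 69.5% and 62.5% in CTL. Both have the same annotated coding exons. They differ ahead of the coding sequence: Serpinh1-203 starts within the first exon of Serpinh1-201 and has an added exon of 44 bases (GRCm38 chromosome 7, 99351824 to 99351867, minus strand). Serpinh1-201 has a first exon of 187 bases (99353053 to 99353239), and that of Serpinh1-203 has 62 bases (99353053 to 99353114). Their last exons also differ in length, with 1034 bases in Serpinh1-201 and 1028 bases in Serpinh1-203.

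In reads, Serpinh1-203 held 817, 402 and 2348 in Runx1_FB_KO replicates 1, 2 and 3, against 8710, 4678 and 6069 in CTL. Serpinh1-201 held 3549, 2625 and 14891 in the knockout and 17617, 11827 and 11140 in CTL. In replicate 3 of the knockout, then, Serpinh1-203 was below every CTL library while Serpinh1-201 was within CTL. The difference in share had p = 0.1 in a two-sided exact permutation test, the smallest possible, and 0.45 after adjustment over the 9 transcripts compared. Of those 9, the 2 of Serpinh1 did not overlap, and as near complements they are not separate observations. How often transcript shares separate the groups over all genes was not computed. Reads that fit both transcripts are apportioned by Salmon, and the error of that step was not used here.

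**Figure D4:**
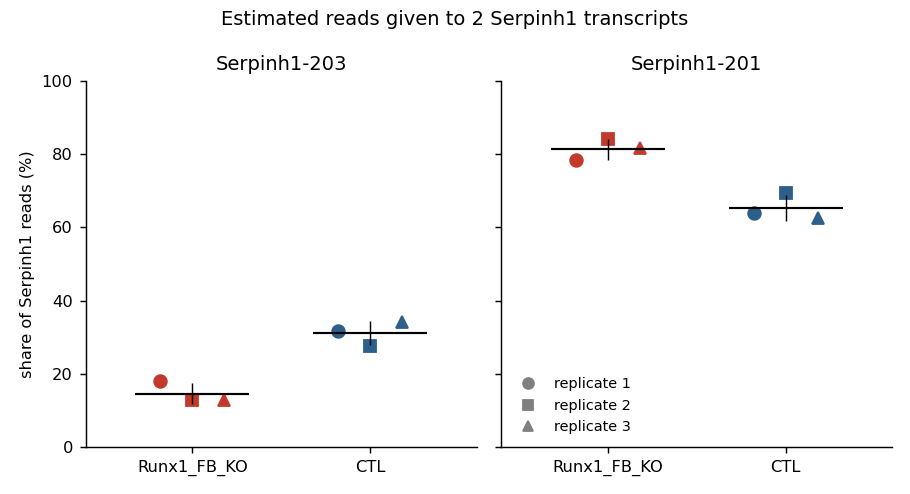
Share of Serpinh1 reads, in percent, given to Serpinh1-203 (left) and Serpinh1-201 (right) in each library, with Runx1_FB_KO left of CTL and the mean and SD (n = 3) in black. Serpinh1-203 lies between 12.9% and 18.0% in the knockout and between 27.5% and 34.0% in CTL.

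In the other members with more than a single transcript at 5% or more of the reads in some library, Hspa5, Calr and Ddit3, every share overlapped between the groups. Hspa5-202, the main Hspa5 transcript, held 87.0% to 90.0% in the knockout and 87.9% to 91.6% in CTL. Ddit3-202, annotated as retaining an intron, held 6.23%, 10.0% and 9.93% in the knockout and 8.11%, 5.0% and 6.25% in CTL. The cut of Xbp1 by Ern1 removes 26 bases, and 0 of the annotated Xbp1 transcripts in the tables has an intron of that length, so cut and uncut Xbp1 were counted together.

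Levels per transcript length, in TPM, ordered the members. Serpinh1 was the highest in CTL at 845 ± 205 TPM, above Calr at 344 ± 52.0 TPM in each library (SD, n = 3). Calr, Pdia3, Hsp90b1 and Hspa5 followed each other at 344 to 252 TPM in CTL, each pair of neighbours overlapping. Pdia6 had 161 ± 25.5 TPM, Atf4 114 ± 13.7 and Xbp1 107 ± 6.88, with the last pair overlapping, and below them came Pdia4 at 69.3 ± 17.0 and Ddit3 at 34.3 ± 11.2 TPM.

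In the knockout the order depended on the library. Hspa5 was the highest member in Runx1_FB_KO replicates 1 and 2, at 205 and 223 TPM, where Serpinh1 had 130 and 107 TPM. In Runx1_FB_KO replicate 3 Serpinh1 was the highest at 707 TPM and Hspa5, behind Serpinh1 and Calr, had 269 TPM. In CTL replicates 1, 2 and 3 Hspa5 was at 273, 240 and 242 TPM, rank 4 or 5 of the 10. TPM are not scaled by TMM, and on the TPM scale Hspa5 overlapped between the groups and its mean was lower in the knockout, at 232 ± 32.7 TPM, against 252 ± 18.3 TPM in CTL (SD, n = 3 each). The TPM ranges of all neighbours in the knockout order overlapped, and replicate 3 had the highest TPM of the knockout libraries for all 10 members. Within each of the 3 knockout libraries, Calr was still above Hsp90b1, Pdia3 above Pdia6, Pdia6 above Atf4, Atf4 above Xbp1 and Xbp1 above Pdia4.

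The rest of the folding machinery was lower more often than higher, and none of it passed the edgeR threshold with all 6 libraries. Of 24 other chaperones and folding enzymes tested, 21 had negative log2 fold changes (median -0.29), 9 lay wholly below CTL and 2 wholly above. Leaving out Runx1_FB_KO replicate 3, 10 fell and 1 rose. Over all genes, 18.8% lay wholly below CTL and 20.2% wholly above, and without that replicate 22.5% fell and 25.1% rose. Ppib, a proline isomerase of procollagen folding, was at 100, 95.6 and 202 CPM in Runx1_FB_KO replicates 1, 2 and 3, against 245 to 293 CPM in CTL (log2 fold change -1.004, SE 0.32, edgeR adjusted p = 0.101). Txndc5, a thiol isomerase of matrix-producing fibroblasts, was at 110, 105 and 278 CPM in the knockout, against 298 to 372 CPM in CTL. Dnajb11, a partner of Hspa5, was also lower, at 52.7 to 63.8 CPM in the knockout and 68.6 to 84.6 CPM in CTL. Dnajb9, another partner of Hspa5 and a target of Xbp1, was higher, at 55.6, 65.3 and 39.7 CPM in the knockout and 26.2 to 38.6 CPM in CTL (log2 fold change 0.68, SE 0.23, edgeR adjusted p = 0.114).

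Genes of ER-associated degradation and of the translocon were also lower more often than higher, with 0 called in that fit. Of 23 tested, 20 had negative log2 fold changes (median -0.36), and 13 lay wholly below CTL and 0 above. The shares over all genes were 18.8% wholly below and 20.2% wholly above. In the fit without Runx1_FB_KO replicate 3, 10 fell and 1 rose, where 22.5% of all genes fell and 25.1% rose. Ssr1, a translocon subunit, had a log2 fold change of -0.74 (SE 0.23, edgeR adjusted p = 0.0935), Selenos, which links the degradation complex to its ATPase, had -0.57, Edem2, a mannosidase-like protein, -0.71, and the channel subunit Sec61b -1.13. Herpud1 is a stress-inducible degradation factor and is no part of those 4. It was at 188, 282 and 72.0 CPM in the knockout and 60.1 to 80.5 CPM in CTL, rank 5 in the list by p and named after its values were seen.

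The sensors were divided. Of 15 sensors and proximal regulators, 12 had negative log2 fold changes (median -0.23). Of the 15, 1 lay wholly above CTL and 2 wholly below, where 20.2% of all genes lay above and 18.8% below. Atf6 was at 159, 193 and 113 CPM in Runx1_FB_KO replicates 1, 2 and 3, against 90.4, 114 and 95.4 CPM in CTL, overlapping by little (log2 fold change 0.64, SE 0.23, edgeR adjusted p = 0.125). Eif2ak3 was at 19.4, 19.7 and 32.8 CPM in the knockout, against 34.8 to 37.9 CPM in CTL, with a log2 fold change of -0.58. Creb3, a membrane-bound factor related to Atf6, had -0.51. Ppp1r15a, which restores translation after Eif2ak3 acts, was at 34.0, 34.0 and 34.1 CPM in the knockout and 26.0 to 29.2 CPM in CTL, wholly above, but its log2 fold change of 0.31 turned to -0.16 with library size alone. Without Runx1_FB_KO replicate 3, 6 of the 15 fell and 2 rose, where 22.5% of all genes fell and 25.1% rose.

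Genes known as targets of Atf4 and Ddit3 were mostly lower. Of 30 tested, 26 had negative log2 fold changes (median -0.48), 10 lay wholly below CTL and 2 wholly above, and without Runx1_FB_KO replicate 3, 14 fell and 3 rose. DESeq2 with all 6 libraries called 8 lower and 2 higher, where it called 5.9% of all genes lower and 15.6% higher. Of all genes, 18.8% lay wholly below CTL and 20.2% wholly above. Without Runx1_FB_KO replicate 3, 22.5% of all genes fell and 25.1% rose in edgeR. Asns, asparagine synthetase, was at 4.12, 3.44 and 5.67 CPM in Runx1_FB_KO replicates 1, 2 and 3, against 7.68 to 13.7 CPM in CTL (log2 fold change -1.38, SE 0.32, edgeR adjusted p = 0.0682). Slc7a5, an amino acid transporter, had -1.67, and Bcl2l11, a death factor known as a target of Ddit3, had -0.65. Vldlr, a lipoprotein receptor that heart muscle expresses, was at 410, 547 and 137 CPM in the knockout and 53.0 to 115 CPM in CTL. The cardiomyocyte score was 2.87, 3.19 and 1.30 in the same knockout libraries, and its part in the Vldlr value was not tested.

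Chaperones outside the endoplasmic reticulum were higher more often than lower, with 0 called in that fit. Of 16 tested, 10 had positive log2 fold changes (median 0.48, but -0.03 with library size alone, where all genes had -0.52), and 6 lay wholly above CTL and 2 wholly below. The shares over all genes were 20.2% wholly above and 18.8% wholly below. Without Runx1_FB_KO replicate 3, 9 rose and 1 fell, where 25.1% of all genes rose and 22.5% fell. Hspd1, the mitochondrial chaperonin that works with Hspe1, was at 349, 430 and 165 CPM in Runx1_FB_KO replicates 1, 2 and 3, against 86.6 to 111 CPM in CTL (log2 fold change 1.67, SE 0.36, edgeR adjusted p = 0.0682). The cytosolic exchange factors Hsph1, Hspa4l and Hspa4 had 0.76, 0.93 and 0.69. The share of mitochondrially encoded reads was 24.5%, 19.6% and 10.4% in the same libraries, and its part in these values was not tested.

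**Figure D5:**
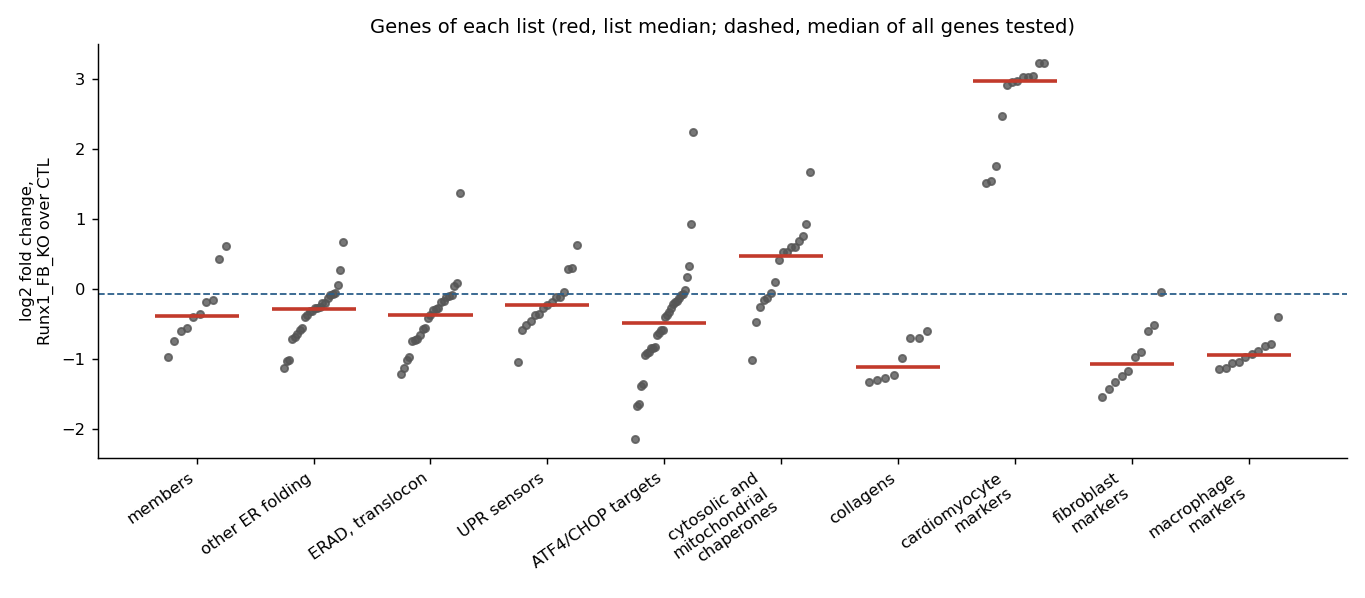
Log2 fold change, Runx1_FB_KO over CTL, of each tested gene of the member list, the related lists and 3 lists of cell type markers, from edgeR on all 6 libraries. Red bars are list medians (-0.38 for the members, -0.48 for targets of Atf4 and Ddit3, 0.48 for chaperones outside the endoplasmic reticulum, which turns to -0.03 with library size alone, 2.97 for cardiomyocyte markers) and the dashed line is the median of all genes, -0.06.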

How the data were processed

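The authors deposited a Salmon table per library that gives 116546 transcripts an effective length, TPM and estimated counts, per the file headers. Salmon 1.5.2, DESeq2 1.44.0 and the builds mm10 and GRCm38 are given in the submitters' processing notes, and the annotation release is not given in the sources used here. Deposited estimated counts were summed per gene over the 115977 transcripts that matched GENCODE M21 (GRCm38), 35498 genes, and rounded. The unmatched 569 transcripts held 0.0777% to 0.102% of a library's reads. A second gene identifier named Ddit3, at 0 reads in every library, was not used. Deposited TPM were summed per gene for levels per length.

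Genes were filtered with filterByExpr and scaled by TMM (factors 0.732 to 1.21). Genotype was tested by edgeR 4.0.16 quasi-likelihood tests with Benjamini-Hochberg adjustment over 14237 genes and a threshold of 0.05. SE was derived from the fold change and the F statistic (size of the log2 value over root F). CPM are linear, and log2 CPM used a prior count of 2. The fit was tested on simulated data. Alternatives were sex as a covariate, a replicate block, other scalings and filters, an effective length offset, DESeq2 1.42.0, limma-voom (limma 3.58.1), a threshold of 0.1 and omission of each library. Same-numbered libraries had deviations from their group means that correlated at -0.05, 0.11 and 0.08, and the labels tie no numbers together.

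The members and the lists of related genes were chosen with earlier results of these data known, so no p is adjusted over a list and no list was tested. Named genes are the members, Runx1, the 4 genes with the smallest p in each related list, Col1a1 and Col3a1, and the 4 nearest profiles to Hspa5, Serpinh1 and Ddit3 among genes with a mean log2 CPM of at least 3. Herpud1 and the genes that overlap members are named outside this rule. The labels number the samples but do not state that each is a different animal, so p-values measure the spread between these samples. Promoter sequences are from RefSeq (GRCm38.p6). Strandedness of the libraries was not stated, so reads of overlapping genes on opposite strands cannot be told apart. A result on a marker gene is not reported here.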

Additional observations from a re-analysis of the deposited data

How the results depend on the processing

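With all 6 libraries edgeR called 0 genes and 0 members with sex as a covariate, a replicate block, RLE size factors, library size alone, mitochondrially encoded genes left out, a minimum of 1 CPM in 3 samples or an effective length offset, and limma-voom also called 0. At an unadjusted p under 0.05 edgeR had 2752 genes higher and 1867 lower. The count of genes called was 889 with no filter, 2995 with DESeq2 and 2311 at a threshold of 0.1, and members called were 1 with DESeq2. Leaving out each library in turn gave 0 to 6947 genes and 0 to 7 members called, the higher values without Runx1_FB_KO replicate 3. Members with groups that did not overlap numbered 3 with library size alone and 2 to 10 when each library was left out, with 10 without Runx1_FB_KO replicate 3 and 6 without CTL replicate 2, where fewer libraries have to be separated. Of all genes tested, 39% did not overlap with all 6 libraries, 68.5% without Runx1_FB_KO replicate 3 and 51.1% without CTL replicate 2. With library size alone, 10.8% lay wholly above and 39.8% wholly below CTL, and of the members 0 lay above and 3 below. The log2 fold change of Ddit3 turned to -0.048 with library size alone, and that of Hsp90b1 ran from -0.226 to 0.00922 when each library was left out, the positive value without CTL replicate 1. With library size alone the median of the members was -0.80 and that of all genes -0.52. The Serpinh1-203 share, knockout minus CTL, was -16.5 percentage points, -16.5 as a share of TPM and -18.2 to -15.0 without each library in turn, settings chosen after seeing the data. The labels do not pair the samples by number, so no pairing was used in the main fit. The correlations of same-numbered libraries, -0.05, 0.11 and 0.08, come from too few pairs to decide whether a pairing exists. The planned comparison of Xbp1 transcripts was not run, because no annotated transcript carries the cut.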

Other observations

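Annotated genes on the opposite strand overlap 4 of the members. Mars overlaps Ddit3 by 68 bases and had 681, 692 and 730 reads in Runx1_FB_KO replicates 1, 2 and 3, against 725, 867 and 759 in CTL, more than Ddit3 itself. The pseudogene 1810014B01Rik overlaps Hsp90b1 by 4598 bases and had 107, 86 and 65 reads in the knockout, against 34, 50 and 32 in CTL, few beside the 4574 to 11720 reads of Hsp90b1. Catsper2 overlaps Pdia3 by 18 bases and Atp6v1c2 overlaps Pdia6 by 50 bases, with 26 to 91 and 0 to 4 reads per library.

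The 8 endothelial markers had a median log2 fold change of -0.07, with 2 wholly above and 2 wholly below CTL. The 10 macrophage markers had -0.94, with 5 wholly below. Of all genes, 20.2% lay wholly above and 18.8% wholly below. Endothelial markers summed to 1224, 1158 and 1082 CPM in Runx1_FB_KO replicates 1, 2 and 3, against 1039, 1039 and 939.3 CPM in CTL. By this sum all 3 knockout libraries lay above CTL. Macrophage markers summed to 1306, 1260 and 3138 CPM in Runx1_FB_KO replicates 1, 2 and 3, against 4952, 3069 and 3342 CPM in CTL. Within each group this was the order of Serpinh1. Replicate 3 of the knockout lay below CTL replicate 3 for these markers and above it for Serpinh1. The part of macrophages in the Serpinh1 values was not tested.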
